A study of Mus musculus with 12 samples.

Results

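Cytoplasmic ribosomal protein genes were followed across the sorted villus cells of the mouse jejunum. Members were the protein-coding genes whose symbol starts with Rpl or Rps and a digit, together with Rpsa, Rplp0, Rplp1 and Rplp2. The Rps6k kinase genes, pseudogenes and -ps symbols were left out. This gave 86 genes of 39086 in the count table, 52 with an Rpl symbol (large subunit) and 34 with an Rps symbol (small subunit). Of these, 77 encode the standard ribosomal proteins. The other 9 were the paralogs Rpl22l1, Rpl7l1, Rpl36al, Rps27l, Rpl10l, Rpl39l and Rpl3l, the retrogene Rps27rt, and Rps19bp1, whose product binds Rps19 and is not itself a ribosomal protein. The rule leaves out Fau, which encodes a ribosomal protein fused to a ubiquitin-like domain, and Rack1, a small subunit scaffold. Of the 86 genes, 83 passed the filter on low counts, and Rpl10l, Rpl39l and Rpl3l did not, with 1, 17 and 17 counts over all libraries.

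All libraries came from jejunal villi of 12-week-old male mice of the C57BL/6N background with the genotype Neurog3eYFP/+, in which 1 allele of the endocrine transcription factor Neurog3 carries a yellow fluorescent reporter. The controls thus carry the same allele as the treated mice. Mice stayed on a normal diet (ND, Safe D04) or were given a high fat diet (HFD, D12492) at 8 weeks of age for 4 weeks. Cells with the reporter were sorted as enteroendocrine cells (EEC), the hormone-secreting cells of the epithelium, and cells without it as non-EEC, a mixture for which the labels name no further sorting marker. Each of the 4 groups, ND EEC, HFD EEC, ND non-EEC and HFD non-EEC, held 3 libraries. According to the labels 3 mice were used for each diet, but no label ties a library to a mouse, and the p-values therefore cover only the spread among libraries.

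Ribosomal proteins are made in matched amounts and join ribosomal RNA in the nucleolus to build the small and large subunits. Their mRNAs are among the most abundant of most cells and typically begin with a C followed by a run of pyrimidines, the 5′ terminal oligopyrimidine (TOP) tract, through which mTORC1 and LARP1 control their translation. A cell can therefore change how much ribosomal protein it makes without a change in the mRNA counts reported here.

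The annotated start sites of some members are shown for the TOP tract. Most of the lines below hold a tract, whereas 37.9% of the members with a RefSeq entry did. Each line gives 15 bases before and 15 bases from the annotated start, 5′ to 3′, from RefSeq on GRCm38.p6. Capitals mark a C followed by at least 5 C or T bases that begins within 5 bases of the start, read on the gene's own strand.
Rps6: aagcggaagtcgggcCTCTTTTTCgtgacg
Rpl15: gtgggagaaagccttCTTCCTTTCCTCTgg
Rps10: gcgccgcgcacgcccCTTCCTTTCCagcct
Rps18: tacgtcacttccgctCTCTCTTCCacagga
Rpl7a: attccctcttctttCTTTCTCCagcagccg
Rps23: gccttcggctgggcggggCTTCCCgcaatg
Rps27: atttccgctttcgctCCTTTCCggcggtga
Rps27rt: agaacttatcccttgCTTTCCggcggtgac
Rps27l: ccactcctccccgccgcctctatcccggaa
Rpsa: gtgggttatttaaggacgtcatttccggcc
The windows lie on the minus strand at chr4:86857353-86857382 (Rps6), chr14:18270972-18271001 (Rpl15), chr17:27635230-27635259 (Rps10), chr17:33955651-33955680 (Rps18), chr3:90213634-90213663 (Rps27) and chr9:114982725-114982754 (Rps27rt). Those on the plus strand lie at chr2:26910792-26910821 (Rpl7a), chr13:90923107-90923136 (Rps23), chr9:66946071-66946100 (Rps27l) and chr9:120127751-120127780 (Rpsa).

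A RefSeq entry was found for 66 members, and 25 of them (37.9%) held such a tract, against 1633 of 16203 protein-coding genes (10.1%). With the C required exactly at the annotated start the counts were 11 of 66 (16.7%) and 261 of 16203 (1.6%). Among mitochondrial ribosomal proteins, which serve the other ribosome of the cell, 4 of 68 (5.9%) held a tract. Of the genes called in the comparisons that follow, Rps10, Rps18, Rps23 and Rpl7a held one, and Rpsa, Rpl13, Rps7 and Rpl10a did not. A match describes the letters at an annotated start and not a start measured in these cells.

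Library totals ran from 9543183 to 29054281 counts. EEC markers (14 genes) summed to between 27780 and 142543 counts scaled to the library total (CPM) in EEC libraries and between 277 and 9723 in non-EEC libraries, the highest of these being ND non-EEC replicate 1, which also held the most goblet cell marker counts at 37302 CPM. T cell markers (17 of 18 genes were in the table) summed to 15121, 28624 and 50807 CPM in ND non-EEC, against 957 to 5179 in ND EEC, 53.2 to 292 in HFD EEC and 97.0 to 1091 in HFD non-EEC. None of these T cell markers was at 0 throughout a group. Enterocyte markers (12 genes) summed to between 4312 and 21442 CPM in ND non-EEC and between 37493 and 65270 in HFD non-EEC. The non-EEC of the 2 diets thus differed in cell content, and all 3 ND non-EEC libraries lay above every other library in T cell markers, replicates 2 and 3 most.

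The 86 genes took between 0.747% and 3.83% of a library's counts. The share was 1.24%, 1.2% and 1.63% in ND EEC, 1.42%, 1.42% and 2.1% in HFD EEC, 1.79%, 2.77% and 3.83% in ND non-EEC, and 1.58%, 0.747% and 2.03% in HFD non-EEC. Every ND non-EEC library lay above every ND EEC library, while the HFD groups overlapped. Group means were 1.36% ± 0.238 (SD, n = 3), 1.65% ± 0.394, 2.8% ± 1.02 and 1.45% ± 0.652 in the same order. In bulk RNA, a change in the mixture of cell types and a change in ribosomal protein mRNA per cell cannot be told apart. Transcripts of the mitochondrial genome took 2.03% to 11.6% of counts, and were lowest in the library with the highest ribosomal protein share, ND non-EEC replicate 3. With these transcripts left out of the total, the share was 1.33% to 1.74% in ND EEC and 1.92% to 3.9% in ND non-EEC, and these groups remained apart. Large subunit genes gave 55.9% to 63.2% of the ribosomal protein counts in every library.

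**Figure D1:**
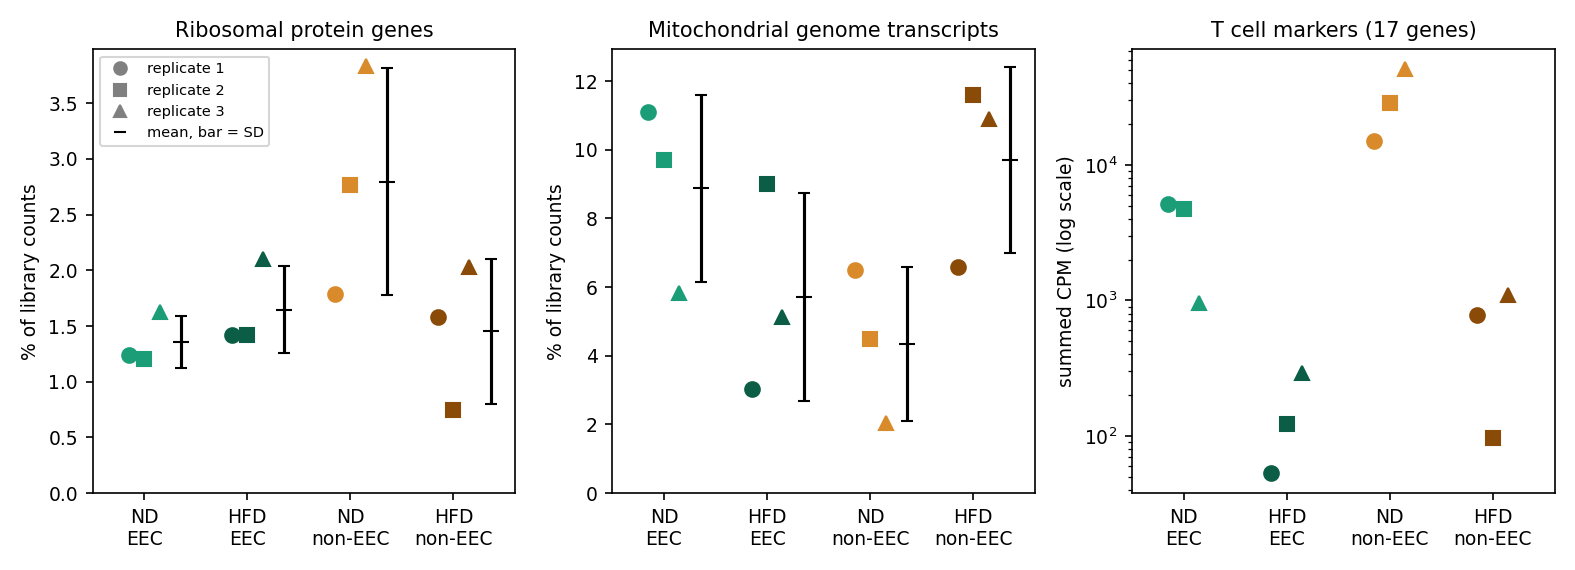
Share of counts in the 86 ribosomal protein genes (left), share in mitochondrial genome transcripts (middle) and summed CPM of 17 T cell markers on a log scale (right), 1 point per library by group and replicate, with mean and SD at the side of the 2 share panels. ND non-EEC libraries reach 3.83% for ribosomal protein genes and 50807 CPM for T cell markers, and HFD non-EEC replicate 2 is lowest in the left panel at 0.747%.

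Levels were compared between genes per kilobase of the main annotated mRNA. Rpl41, the shortest ribosomal protein, had the highest mean at 1000 CPM per kb, with libraries between 417 and 1582. It was followed by Rpl32 at 991, Rps27 at 761, Rpl4 at 686 and Rps29 at 643 CPM per kb. These 5 overlapped in their library ranges, and Rpl32 alone ran from 329 to 2662. At the low end were Rpl7l1 at 8.04, Rps19bp1 at 15.8, Rpl35 at 52.8, Rps15a at 82.8 and Rpsa at 87.2 CPM per kb. Rpl7l1 is a nucleolar relative of Rpl7 and, like Rps19bp1, lay below every standard gene in mean level. The place of Rps15a depended on the annotated mRNA, which is 5130 bases long. Per kilobase of coding sequence it stood at 1088 CPM and ranked 6 of 83, whereas Rpl35 at 135 ranked 80.

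**Figure D2:**
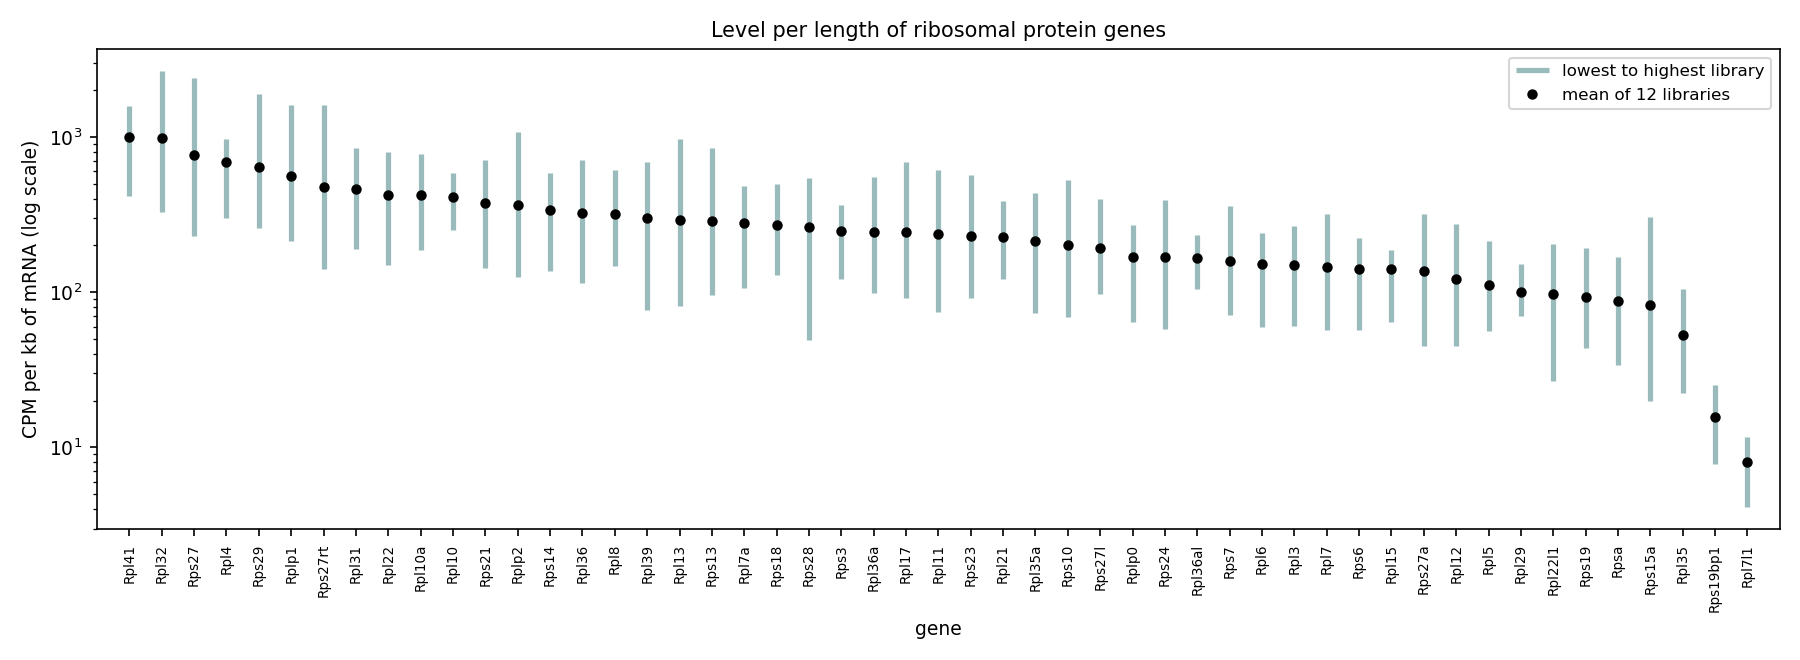
Level of the 51 tested ribosomal protein genes named in the text, in CPM per kb of mRNA on a log scale, ordered by the mean of 12 libraries (points), with the lowest and highest library as the bar. Library ranges of neighbouring genes overlap, and Rps19bp1 (15.8) and Rpl7l1 (8.04) lie below the rest.

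The spread of single genes over the 12 libraries differed. The highest library held 2.14 times the CPM of the lowest for Rpl29, 2.21 times for Rpl36al and 2.34 times for Rpl10, and 11.9 times for Rpl13 and 15.3 times for Rps15a, with a median of 5.01 over the members with counts in every library. Within a group, the SD of a member's log2 CPM had a median of 0.53.

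Under ND, most ribosomal protein genes had lower values in EEC than in non-EEC. Log2 fold changes were negative for 82 of 83 tested members, with a median of -0.96 against -0.02 over all 17087 tested genes. The decrease passed edgeR's quasi-likelihood test with Benjamini-Hochberg adjustment over all genes for 13 members (15.7%) and no member was called higher. Over all genes tested, 4.9% were called lower. Those of the large subunit (7) were Rpl17, Rpl13, Rpl10a, Rpl3, Rpl21, Rplp1 and Rpl7a, and those of the small subunit (6) included Rps23, Rpsa, Rps7, Rps18 and Rps10. In CPM, 47 of 83 members (56.6%) were lower in every ND EEC library than in any ND non-EEC library, against 16.2% of all tested genes.

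Rpl17, a protein at the rim of the exit tunnel, stood at 91.7, 73.5 and 92.8 CPM in ND EEC and at 196, 322 and 536 CPM in ND non-EEC. The groups did not overlap, and Rpl17 was 3.82-fold lower in EEC (log2 -1.94 ± 0.44 SE, adjusted p = 0.014). Rps23 (chromosome 13, 90922958 to 90924950, mm10), a protein of the decoding centre, stood at 101, 126 and 168 CPM in ND EEC against 257, 415 and 531 CPM in ND non-EEC. It was 2.92-fold lower in EEC (log2 -1.54 ± 0.36, adjusted p = 0.0163). In both genes the highest ND non-EEC value was in replicate 3, the library with the most T cell marker counts.

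The count of 13 moved with single libraries. It was 0 of 83 with ND non-EEC replicate 3 left out, where 209 of 17740 tested genes were called lower. The count was 1 with ND non-EEC replicate 2 (235 of 17913), ND EEC replicate 2 (759 of 17961) or ND EEC replicate 3 (235 of 17817) left out. With ND non-EEC replicate 1 left out it was 29 (1197 of 17893). Calls over all genes thus moved with these libraries too. The median was -0.63 without ND non-EEC replicate 3. Leaving out HFD EEC replicate 1, 2 or 3, which enter through the shared spread, gave 6 members (725 of 17859 tested genes lower), 8 (775 of 18061) and 8 (785 of 17738). Without ND non-EEC replicates 2 and 3 together, a choice made after the T cell markers were seen, the median of the members was -0.43, 65 of 83 were negative and 0 were called by edgeR, with 6 at an unadjusted p under 0.05. That fit has 1 library in ND non-EEC, which was assumed to vary like the other groups and itself held 15121 CPM of T cell markers. It called 28 genes lower of 19375 tested, or 0.145%. With only the 6 ND libraries fitted, 2 members were called lower (2.69% of all tested genes in that fit). With a block for the replicate number 36 members were lower (5.27% of all genes), with DESeq2 27 (9.12%) and with limma-voom 48 (14.2%).

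Under HFD, the same comparison gave values close to 0. Log2 fold changes were negative for 50 of 83 members, ran from -0.45 to 0.35 and had a median of -0.05, with 0.00 over all genes. No member was called in either direction by edgeR, 0 had an unadjusted p under 0.05, and DESeq2 and limma-voom also called 0, while 14.0% of all tested genes were called. Rps27l, among the members with the smallest p, had a log2 fold change of -0.45 ± 0.43 (adjusted p = 0.556). Rps23 had a log2 fold change of -0.16 ± 0.36 and Rpl17 of -0.18 ± 0.43. Scaling by total counts alone moved the median of all genes to 0.26 and that of the members to 0.21, with 8 of 83 negative, so the sign of the HFD median depended on the scaling. It also turned when HFD non-EEC replicate 3 was left out (median 0.29, 11 negative) or HFD EEC replicate 1 (0.02) or 2 (0.05), and was -0.32 when HFD non-EEC replicate 2 was left out.

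**Figure D3:**
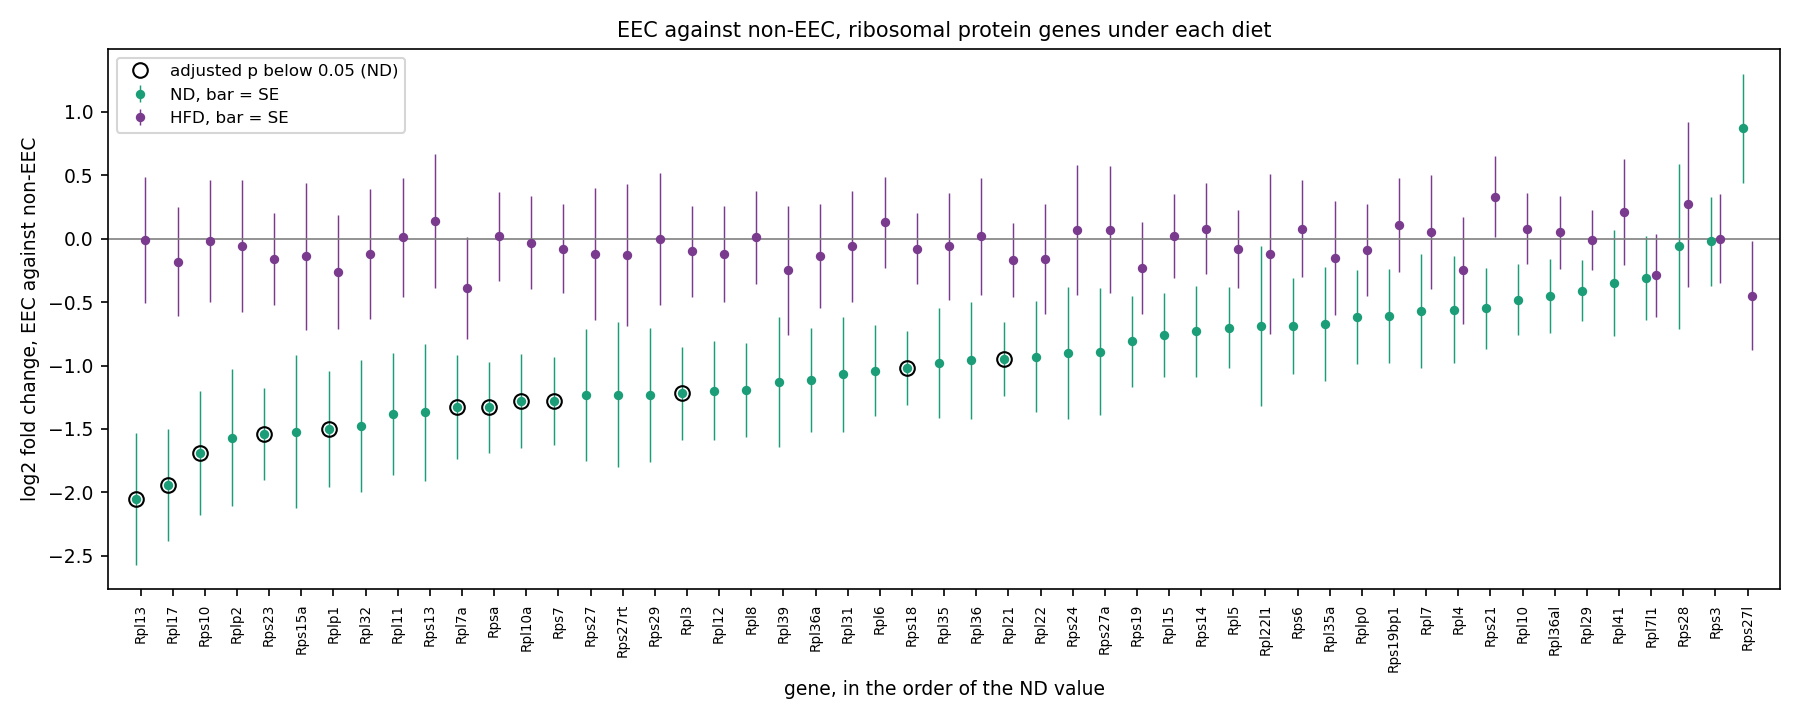
Log2 fold change of EEC against non-EEC for the 51 tested ribosomal protein genes named in the text under ND (green) and HFD (purple), with the SE as the bar, ordered by the ND value. Open circles mark genes with an adjusted p below 0.05 under ND. The ND values run from -2.05 for Rpl13 to 0.87 for Rps27l, and the HFD values stay between -0.45 and 0.35.

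Over both diets together, 80 of 83 members were negative in EEC against non-EEC with a median of -0.51, against -0.05 over all genes. Of these, 4 were called lower, 4.82% of the members, against 7.8% of all tested genes, and 0 were called higher. The called genes included Rpl17 (log2 -1.06 ± 0.30, adjusted p = 0.0242), Rps23 (-0.85 ± 0.25, adjusted p = 0.0283) and Rpl7a (-0.86 ± 0.29, adjusted p = 0.0472). In each, HFD EEC libraries overlapped with HFD non-EEC libraries, and no member was without overlap over all 6 EEC and 6 non-EEC libraries. Over 23 alternatives Rpl17 was called in 16, Rps23 in 15 and Rpl7a in 10. The count was 1 with ND EEC replicate 2 left out, where 1276 of 17961 tested genes were called lower. It was also 1 without HFD EEC replicate 1 (765 of 17859) or 2 (1463 of 18061). The same held without replicate 3 of ND non-EEC (1204 of 17740) or of HFD non-EEC (860 of 18138). The count was 2 with ND EEC replicate 3 (1013 of 17817) or ND non-EEC replicate 2 (992 of 17913) left out. It was 8 without ND EEC replicate 1 (1493 of 18074), 11 without ND non-EEC replicate 1 (1362 of 17893) and 13 without HFD non-EEC replicate 2 (1230 of 18138). Leaving out ND non-EEC replicates 2 and 3 together gave 0, with 3 at an unadjusted p under 0.05 and a median of -0.23. Leaving out replicate 3 of HFD non-EEC gave a median of -0.33, and leaving out replicate 3 of ND non-EEC gave -0.34. The replicate block gave 17 (8.61% of all genes lower in that fit), DESeq2 11 (12.2%) and limma-voom 28 (14.5%).

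By role in the ribosome, the stalk that recruits elongation factors is built from Rplp0, Rplp1 and Rplp2 and sits on Rpl12. Rplp1 stood at 159, 142 and 199 CPM in ND EEC and 271, 425 and 804 CPM in ND non-EEC. It was 2.84-fold lower in ND EEC (adjusted p = 0.0483). Rplp2 (log2 -1.57 ± 0.54, adjusted p = 0.071), Rpl12 (-1.20 ± 0.39, adjusted p = 0.0566) and Rplp0 (-0.62 ± 0.37, adjusted p = 0.29) did not pass the test. Under HFD the 4 stalk genes lay between -0.26 and -0.06.

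Rpl5 and Rpl11 carry 5S ribosomal RNA and, outside the ribosome, bind Mdm2. Rpl11 stood at 113, 90.4 and 148 CPM in ND EEC and 185, 279 and 508 CPM in ND non-EEC, without overlap, and its log2 fold change of -1.38 ± 0.48 missed the threshold (adjusted p = 0.0758). Rpl5 had -0.70 ± 0.32 (adjusted p = 0.165). Around the exit tunnel, Rpl4 stood at 1178, 699 and 770 CPM in ND EEC and at 1360, 1393 and 1421 CPM in ND non-EEC (-0.56 ± 0.42, adjusted p = 0.421). Rpl39, the smallest tunnel protein, had -1.13 ± 0.51 (adjusted p = 0.164). Rpl3, which binds near the peptidyl transferase centre, was 2.32-fold lower in ND EEC (-1.22 ± 0.37, adjusted p = 0.0449), and Rpl10, which completes that site late in assembly, had -0.48 ± 0.28 (adjusted p = 0.282).

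In the small subunit, Rpsa stands at the mRNA exit. It had 98, 79.7 and 71.8 CPM in ND EEC against 196, 198 and 270 CPM in ND non-EEC, and was 2.51-fold lower (-1.33 ± 0.36, adjusted p = 0.0294). Rps3, at the mRNA entry and also a DNA repair factor, did not share this. It stood at 694, 487 and 409 CPM in ND EEC and 484, 677 and 577 CPM in ND non-EEC, with a log2 fold change of -0.02 ± 0.35 (adjusted p = 0.976). Rps6, the substrate of the S6 kinases, had -0.69 ± 0.38 (adjusted p = 0.263) and Rps14 had -0.73 ± 0.36 (adjusted p = 0.206). Rps27a, made as a fusion with ubiquitin, had -0.89 ± 0.50 (adjusted p = 0.265). Outside the symbol rule, Rack1 (-0.98 ± 0.37, adjusted p = 0.0998) and Fau (-0.34 ± 0.44, adjusted p = 0.668) were not called.

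Within EEC, HFD was compared with ND. No member was called, and 0.0% of all tested genes were called by edgeR, although 1613 had an unadjusted p under 0.05 and DESeq2 called 465 and limma-voom 8. Unadjusted p-values were under 0.05 for 6 members, all higher under HFD, and DESeq2 and limma-voom called 0 of the 83. Log2 fold changes were positive for 72 of 83, with a median of 0.36 against 0.00 over all genes. The median was 0.17, with 29 of 83 negative, when HFD EEC replicate 3 was left out and 0.20, with 21 negative, when ND EEC replicate 2 was left out, and neither fit gave a member an unadjusted p under 0.05. In CPM, 13 members (15.7%) were higher in every HFD EEC library than in any ND EEC library, against 6.47% of all tested genes. Rpl7a had 160, 97.2 and 131 CPM (ND) and 246, 203 and 335 CPM (HFD), without overlap (log2 1.06 ± 0.41, adjusted p = 0.408). Rpl8, of the same subunit, stood at 125, 136 and 237 CPM against 250, 271 and 339 CPM (0.89 ± 0.37, adjusted p = 0.472). The T cell marker sum, given above, was lower in every HFD EEC library than in any ND EEC library. Its part in these values was not tested.

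Within non-EEC, log2 fold changes under HFD were negative for 80 of 83 members, with a median of -0.50 against -0.10 over all genes. The median was -0.20 (68 negative) without ND non-EEC replicate 3, -0.24 (68 negative) without HFD non-EEC replicate 2, -0.78 without ND non-EEC replicate 1, and leaving out replicate 3 of HFD non-EEC gave -0.89. None passed the test by edgeR, where 9.15% of all tested genes were called lower. Unadjusted p-values were under 0.05 for 8 members, all lower. Over all 17087 tested genes they were under 0.05 for 5273, of which 2885 were lower. In CPM, 21 members (25.3%) were lower in every HFD library than in any ND library, close to the 28.6% of all tested genes. On CPM scaled by the TMM factors of the fit, which were 0.7323 to 0.9395 in HFD non-EEC and 1.003 to 1.217 in ND non-EEC, 8 members (9.64%) were lower without overlap and 1, Rps27l, was higher, against 20.2% of all tested genes lower. Rps21, a small subunit protein on the solvent side, stood at 123, 278 and 282 CPM against 109, 56.3 and 97.7 CPM (-0.96 ± 0.33, adjusted p = 0.0644). Other settings called members, beside the share of all genes called lower in the same fit. These were 9 lower with the replicate block (9.28% of all genes), 2 with DESeq2 (12.6%), 9 lower and 1 higher with limma-voom (21.3%), 11 with ND non-EEC replicate 1 left out (12.5%) and 2 with ND EEC replicate 1 left out (10.9%). Total counts alone gave 7 lower (13.7%), with a median of -0.91 for the members and -0.50 for all genes. Without ND non-EEC replicates 2 and 3 the median of the members was -0.01, with 43 of 83 negative.

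The difference of the diet effects (EEC minus non-EEC) asked whether the diet moved these genes unequally in the 2 populations. It was positive for 82 of 83 members, with a median of 0.89 against 0.11 over all genes. No member was called by edgeR, where 0.497% of all tested genes were called. Unadjusted p-values were under 0.05 for 14 members, 13 higher and 1 lower. Over all 17087 tested genes they were under 0.05 for 2815, of which 1551 were higher. DESeq2 called 0 members. With limma-voom 6 members were called, all higher, where 963 of 17087 tested genes were called higher. With ND non-EEC replicate 1 left out, edgeR called 1 member, also higher, where 464 of 17893 tested genes were called higher. Without ND non-EEC replicate 3 the median was 0.57 and 2 members had an unadjusted p under 0.05, and without HFD non-EEC replicate 3 they were 1.27 and 37. Rpl17 had 1.76 ± 0.61 (adjusted p = 0.18) and Rpl13 2.05 ± 0.72 (adjusted p = 0.186). In CPM, Rpl13 had 114, 63.8 and 119 (ND EEC), 179, 180 and 243 (HFD EEC), 158, 424 and 761 (ND non-EEC) and 154, 91.7 and 262 (HFD non-EEC). Replicates 2 and 3 of ND non-EEC were its highest libraries. Thus the main edgeR fit did not show for any single member that EEC against non-EEC differed between the 2 diets, while limma-voom called 6. Without ND non-EEC replicates 2 and 3 the median of the difference was 0.39.

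One paralog had the opposite sign to the rest under ND, without passing the test. Rps27l, an Rps27 paralog known as a p53 target, was the only member with a positive ND value (log2 0.87 ± 0.43, adjusted p = 0.201). In CPM it had 55.7, 140 and 199 (ND EEC), 48.3, 87.2 and 117 (HFD EEC), 62.6, 89.5 and 65.7 (ND non-EEC) and 83.1, 59.8 and 142 (HFD non-EEC), and the groups overlapped. Rps27 stood at 207, 152 and 233 CPM in ND EEC and 257, 394 and 832 CPM in ND non-EEC. The ratio of Rps27l to Rps27 counts was 0.27, 0.925 and 0.853 in ND EEC and 0.243, 0.227 and 0.079 in ND non-EEC. Under HFD it was 0.342, 0.698 and 0.392 in EEC and 0.576, 0.754 and 0.492 in non-EEC. The ND groups did not overlap in this ratio, with 0.27 and 0.243 as the nearest values, and the HFD groups did. Rps27, the divisor, had a log2 fold change of -1.23 ± 0.52 under ND (adjusted p = 0.138). The ratio therefore does not show a difference of Rps27l itself.

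The retrogene Rps27rt, a processed copy with 1 exon, kept a narrow ratio to Rps27, between 0.599 and 0.743 in all 12 libraries. Counting could split reads between near-identical copies, so the values of both genes are uncertain. Rpl22l1, a paralog of Rpl22, had 0.101 to 0.544 of the Rpl22 counts, and its lowest ratio in each group was in replicate 1. Rpl36al had 0.39 to 1.24 of the Rpl36a counts. Rpl7l1 had 0.082 to 0.217 of the Rpl7 counts. Rpl3l, known from striated muscle, and Rpl39l, known from testis, had at most 6 and 14 counts in a library, and Rpl10l at most 1. The 14 Rpl39l counts were in ND non-EEC replicate 3. Pseudogenes that match the symbol rule numbered 245 and took 0.00845% to 0.0377% of a library's counts.

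**Figure D4:**
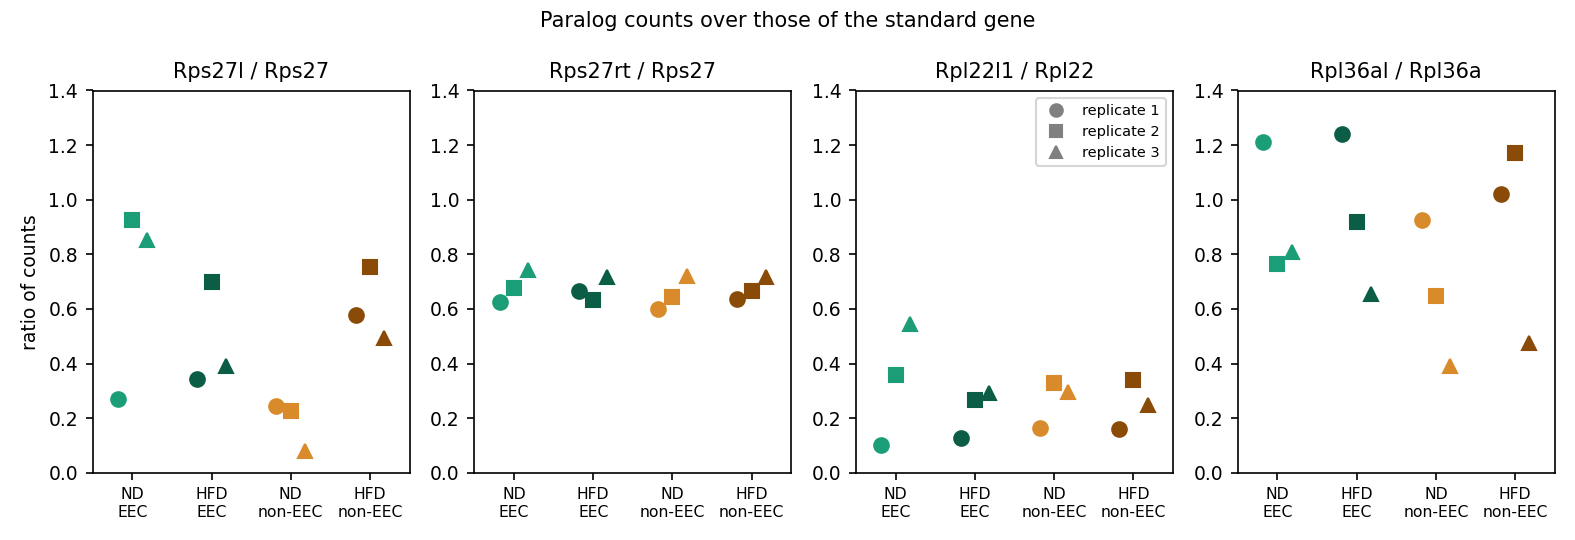
Ratio of counts of Rps27l, Rps27rt, Rpl22l1 and Rpl36al to those of the standard gene in each library, by group and replicate, on a linear axis from 0. Rps27rt stays between 0.599 and 0.743, whereas Rps27l runs from 0.079 in ND non-EEC replicate 3 to 0.925 in ND EEC replicate 2.

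Most members followed the same order of libraries. Pearson's r of a member's log2 CPM with the mean of the other tested members, over 12 libraries that differ in depth and cell content, had a median of 0.88, and 53 of 83 members were above 0.8. It was lowest for Rps27l at -0.03 and Rps3 at 0.12, and was also below 0.5 for Rps6 at 0.45 and Rpl36al at 0.49. Outside the lists, the genes most like the mean of the members were Wdr89 (r = 0.937), the pseudogene Rpl36-ps12 (0.919), the pseudogene Gm14303 (0.897), Pfdn5, a prefoldin subunit (0.895), and Snrpg, a spliceosome protein (0.891), each over the same 12 libraries. Wdr89 stood between 3.99 CPM in HFD non-EEC replicate 2 and 29.9 CPM in ND non-EEC replicate 3, which were also the lowest and highest libraries in ribosomal protein share.

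Within the ribosomal protein counts, composition moved with the replicate number of the label. When each gene was taken as a share of the ribosomal protein counts of its library, Rpl31, Rpl4, Rpl6 and Rps6 were higher in all 4 libraries numbered 1 than in the other libraries. Rpl22l1, Rpl35a, Rpl39, Rps13, Rps24 and Rps28 were lower there than in any other library. No member's share parted all EEC from all non-EEC libraries. Rps6 took 1.02%, 1.07%, 1.03% and 0.995% in the libraries numbered 1 (ND EEC, HFD EEC, ND non-EEC, HFD non-EEC) and 0.634%, 0.487%, 0.39% and 0.448% in those numbered 3. Rps28 took 0.152%, 0.357%, 0.334% and 0.331% in those numbered 1 and 1.28%, 0.756%, 0.457% and 0.508% in those numbered 3. Rpl4, the member with the most counts, took 9.47%, 7.58%, 7.59% and 9.47% against 4.71%, 4.19%, 3.71% and 4.93%.

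Libraries numbered 1 were then set against those numbered 3 of the same group, a contrast chosen after these shares were seen. The share was higher in number 1 in all 4 groups for 20 members and lower in all 4 for 27. These counts, and the lists of separated members above, have no counterpart over all tested genes. Whether they are particular to ribosomal protein genes was not tested. The 52 members with a coding sequence under 500 bases had a median log2 ratio of -0.29, and the 31 longer ones 0.30. Spearman's rho between coding length and this ratio was 0.53 over the 83 members, and 0.21 between coding length and the log2 CPM difference over 14215 tested genes with a coding sequence, which share the same libraries. The labels do not say what the replicate number stands for, and its part was not tested beyond the block. Among members, deviations from the group means correlated at 0.45 to 0.86 between libraries of different groups with the same number (18 pairs) and at -0.80 to 0.28 with other numbers (36 pairs), as a description over 83 genes that are not independent. The 3 deviations of a group sum to 0 for each gene. A positive correlation with 1 library of a group thus requires a negative one with another, which widens this contrast.

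**Figure D5:**
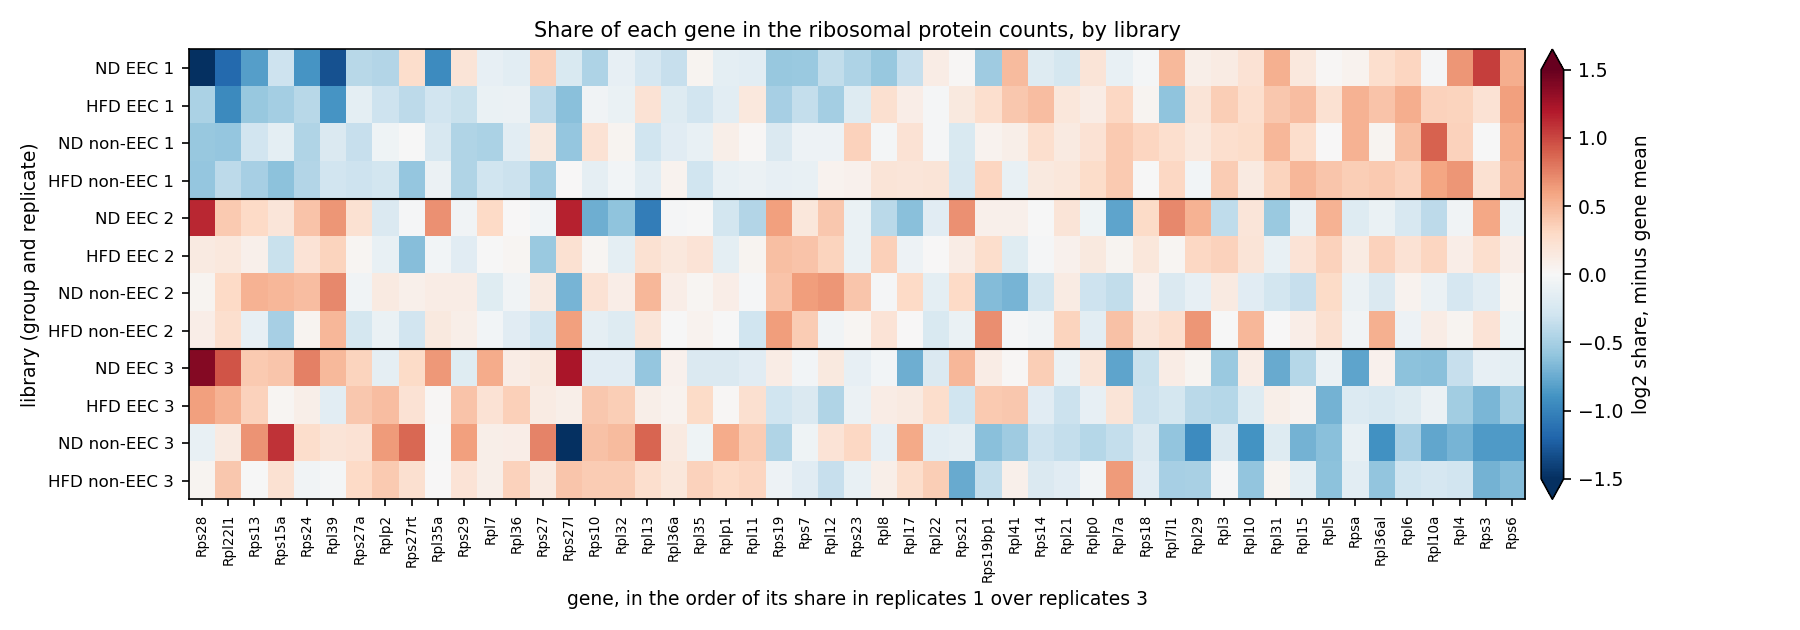
Share of the 51 ribosomal protein genes named in the text in the ribosomal protein counts of each library, as log2 minus the gene's mean over 12 libraries (red higher, blue lower, colours end at 1.5 in either direction), with libraries in rows by replicate number and genes in columns ordered by their share in replicates 1 over replicates 3. Rps28 and Rpl22l1 at the left are low in the rows numbered 1, and Rps6 and Rpl4 at the right are high there and low in the rows numbered 3.

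Other genes of protein synthesis were read from the same fits, where 4.9% of all tested genes were called lower in EEC under ND. Under ND, initiation factors gave 1 of 42 tested genes lower in EEC (Eif3i, -1.06 ± 0.31, adjusted p = 0.0405) and elongation factors 0 of 9, with medians of -0.26 and -0.70. Ribosome biogenesis factors gave 4 of 63 lower and 0 higher, with a median of -0.73. Nop2, a ribosomal RNA methyltransferase, stood at 2.59, 7.75 and 3.92 CPM in ND EEC and 32.2, 21.7 and 22.2 CPM in ND non-EEC (-2.45 ± 0.48, adjusted p = 0.00686). Mitochondrial ribosomal proteins gave 3 of 76 lower and 1 higher, with a median of -0.37, and Mrpl18 had -1.57 ± 0.33 (adjusted p = 0.00941). RNA polymerase I genes gave 0 of 14 and signal recognition and translocon genes 0 of 16, with medians of -0.52 and 0.13. Of mTORC1 and S6 kinase genes 1 of 20 was lower, Myc, a transcription factor that drives ribosome production (-1.70 ± 0.48, adjusted p = 0.0341). Without ND non-EEC replicates 2 and 3, Nop2 was still called, and Mrpl18, Eif3i and Myc were not. Eif3i and Myc were also not called with ND non-EEC replicate 2 or 3 or ND EEC replicate 2 or 3 left out, and Eif3i was not with any HFD EEC library or HFD non-EEC replicate 3 left out.

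Over both diets, Nop2 (-1.40 ± 0.33, adjusted p = 0.00796), the small subunit export factor Ltv1 (-1.10 ± 0.28, adjusted p = 0.0122), Mrpl18 (-1.11 ± 0.23, adjusted p = 0.00375) and Mrpl12 (-1.23 ± 0.28, adjusted p = 0.00662) were lower in EEC. In CPM, HFD EEC libraries of each of these genes overlapped with HFD non-EEC libraries. Nop2 had 26.9, 18.9 and 13.4 CPM in HFD EEC and 30.7, 11.1 and 24.0 CPM in HFD non-EEC. Mrpl18 had 41.1, 49.7 and 41.0 CPM against 78.0, 28.6 and 71.9 CPM. The S6 kinase family gave Rps6ka2 higher (1.89 ± 0.41, adjusted p = 0.00534) and Rps6ka4 lower (-1.12 ± 0.34, adjusted p = 0.0324). Rps6ka2 had 3.28, 24.9 and 20.4 CPM (ND EEC) and 38.6, 32.8 and 34.7 CPM (HFD EEC), and at most 7.95 CPM in any non-EEC library. Under HFD, where no ribosomal protein gene was called, Rps6ka2 (2.42 ± 0.59, adjusted p = 0.0164), the initiation factor Eif4g3 (1.19 ± 0.31, adjusted p = 0.0213) and the nucleolar GTPase Gnl3l (1.38 ± 0.35, adjusted p = 0.0204) were higher in EEC. Mean Eif4g3 was 209 CPM (ND EEC), 214 (HFD EEC), 231 (ND non-EEC) and 80.0 (HFD non-EEC). For Gnl3l the means were 107, 110, 93.1 and 36.3 CPM in this order. In both genes the EEC means were thus close, and non-EEC had the low mean under HFD. Within non-EEC, edgeR called Eif4g3 lower under HFD than under ND (-1.14 ± 0.31, adjusted p = 0.0272), as did 18 of 24 alternatives. In non-EEC, HFD against ND gave lower Taf1b, a part of the RNA polymerase I selectivity factor (-2.87 ± 0.51, adjusted p = 0.00432), and lower Tcof1, the nucleolar protein treacle (-1.72 ± 0.35, adjusted p = 0.00756). Taf1b stood at 12.9, 47.4 and 55.0 CPM in ND non-EEC, highest in the replicates with the most T cell markers, and at 5.26, 2.04 and 4.4 CPM in HFD non-EEC. Without ND non-EEC replicates 2 and 3 neither Taf1b nor Tcof1 was called, nor Rps6ka2 over both diets, while Nop2, Ltv1, Mrpl18 and Mrpl12 were called over both diets in all 23 alternatives. Rps6ka4 was called in 14 of the 23. Under HFD, Rps6ka2, Gnl3l and Eif4g3 lost the call with HFD EEC replicate 1 or HFD non-EEC replicate 3 left out, Rps6ka2 also without HFD non-EEC replicate 1, Gnl3l and Eif4g3 without HFD non-EEC replicate 2, and Eif4g3 without HFD EEC replicate 3.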

How the data were processed

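RNA from sorted cells was turned into cDNA with the Ovation RNA-Seq System V2 and sequenced, per the labels' protocols. The deposited values are whole-number counts per Ensembl gene, with each library in a column of its own. Per the submitters' processing notes, mm10 was the build, HTSeq 0.5.4p3 and TopHat2 2.0.10 were used, and Bowtie2 2.1.0 and CASAVA 1.8.2 are also named. Not given in the sources used here are strandedness, how multiply mapped reads were handled, and the annotation release. Counts of near-identical copies are therefore uncertain.

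GENCODE vM21 gave symbols and positions to 37607 identifiers (96.2%). Genes were kept with filterByExpr (17087), TMM factors scaled the libraries, and a mean for each of the 4 groups was fitted to the 12 libraries (8 residual degrees of freedom, common biological coefficient of variation 0.536) with edgeR 4.0.16 in R 4.3.3. The quasi-likelihood test was adjusted by Benjamini-Hochberg over all tested genes, a gene was called where the adjusted p was below 0.05, and SE is the size of the log2 fold change over the square root of F. CPM scale counts by the library total alone unless TMM factors are named. The log2 CPM in the correlations and in the coding length comparison over all tested genes were also scaled by the TMM factors. Figures used matplotlib 3.10.9. The model script was checked on simulated data. The members, lists and rules were chosen with earlier results of these data known.

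Named members were up to 5 called per direction for EEC against non-EEC over both diets, up to 3 for each other comparison (or the 2 with the smallest p), fixed genes by role, paralogs, and the 5 highest and 5 lowest per length. Other members named as called or as extremes were chosen after their values were seen. Results of some genes within this rule are not reported here. Level per length used 1 annotated mRNA per gene. Alternatives were RLE and upper quartile factors, total counts only, TMM without members and mitochondrial genome genes, no filter, 5 CPM in 3 libraries, robust estimation, DESeq2 1.42.0, limma-voom 3.58.1 with quality weights, a fit of the compared libraries alone, blocking on the replicate number, and each library left out in turn.

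As a check of pairing, same-numbered libraries' deviations from their group means correlated over all genes at 0.23 to 0.25 for EEC and non-EEC under HFD, where the block changed no call of a member, and at -0.01 to 0.23 under ND. Numbers were taken to pair libraries where every same-numbered correlation was over 0.1, which held only for that comparison under HFD.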

Additional observations from a re-analysis of the deposited data

Results flagged for a closer look

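Vim, which encodes the intermediate filament vimentin and was listed among TOP mRNA genes, differed in its diet effect between EEC and non-EEC by 4.04 ± 0.80 on the log2 scale (adjusted p = 0.0456, edgeR's quasi-likelihood test over 17087 genes), a test of the difference itself. In CPM it had 434, 277 and 331 (ND EEC), 386, 134 and 316 (HFD EEC), 79.7, 130 and 237 (ND non-EEC) and 8.48, 1.67 and 7.26 (HFD non-EEC). Over 23 alternatives its adjusted p ran from 0.000248 to 0.181, and 11 of them called it. It was not called with RLE factors, without the 2 ND non-EEC libraries highest in T cell markers, or with any one library left out except HFD EEC replicate 2 and ND non-EEC replicate 1. Vim is also a gene of lymphocytes and stroma, and T cell markers summed to 15121 to 50807 CPM in ND non-EEC. Their part in the result was not tested.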

How the results depend on the processing

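No tested result changed sign with its call. Members called in EEC against non-EEC over both diets (4) were 1 with total counts only, 11 with DESeq2, 28 with limma-voom, 17 with the replicate block, 1 to 13 with a library left out, and 0 without the 2 ND non-EEC libraries highest in T cell markers, a setting chosen after the data were seen. Under ND (13) they were 27, 48 and 36 with DESeq2, limma-voom and the block, 2 with only the libraries compared, 0 to 29 with a library left out, and 0 with a median of -0.43 without those 2 libraries. For HFD against ND in non-EEC (0) they were 7 with total counts only, 2 with the filter of 5 CPM, 2 with DESeq2, 10 with limma-voom (1 higher), 9 with the block, and 0 to 11 with a library left out. For the difference of diet effects (0) limma-voom called 6 and a left-out library gave 0 to 1. The calls stayed at 0 in every setting for EEC against non-EEC under HFD and for HFD against ND in EEC. Calls over all tested genes moved as well. With a library left out, 765 to 1493 genes were called lower over both diets and 209 to 1197 under ND. For HFD against ND in non-EEC they were 752 to 2235. The replicate block changed no other count of called members by more than 1.5 times. Same-numbered libraries correlated best with their own number in 23 of 36 comparisons over all genes and in 36 of 36 over members, a hint from the data and not from the design. The deviations compared sum to 0 within a group, so these comparisons are not independent. The groups hold 3 libraries each, and the size of difference that they could detect was not tested.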
